A study of Mus musculus with 12 samples.

Results

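The transcripts of 7 tetraspanin genes, Cd9, Cd63, Cd37, Cd53, Cd81, Cd82 and Cd151, were followed from basophil progenitors to mature basophils. They are the rows of the 32227 genes in the table that carry these symbols, and all 7 passed the filter on low counts that left 15083 genes for testing. Basophils, a rare kind of granulocyte, bear the high-affinity receptor for IgE on their surface. Bulk RNA-seq was performed on 12 libraries of sorted cells from wild-type C57BL/6J mice, 3 in each of 4 groups, with no treatment given in the labels. By the study's methods each replicate is a pool of animals, and the replicate error below is thus that between pools. All groups were sorted as CD200R3+ cKit- cells. CD34+ CLEC12A-high basophil progenitors (BaPs), CD34- CLEC12A-high CD9-low pre-basophils and CD34- CLEC12A-low CD9-high mature basophils came from the bone marrow (BM), and a further group of mature basophils with the last of these gates came from the spleen. The labels give neither the age of the mice nor a CD9 gate for BaPs, and they call the pre-basophils immature basophils.

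Tetraspanins are small proteins that cross the membrane several times and gather integrins, immunoglobulin superfamily proteins and enzymes into patches of the membrane. CD9, CD81 and CD151 lie mainly at the cell surface, CD82 at the surface and in endosomes, and CD37 and CD53 are found mainly on leukocytes. CD63 lies in the membranes of late endosomes and secretory granules. In basophils it reaches the surface when granules fuse with the plasma membrane, and its surface staining is used to measure degranulation.

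Library totals ran from 3596108 to 8151030 counts, and levels are given as CPM, each gene's counts per 1000000 counts of the library in tested genes, after scaling with TMM (the trimmed mean of M values). A count of 0 allows up to 3 counts, which was 0.290 to 0.955 CPM. All 8 basophil markers listed were detected in every group. Their summed level was 24184.8 to 65236.6 CPM in BaPs, 59294.2 to 67780.9 in pre-basophils, 10301.1 to 13002.9 in BM mature basophils and 5133.2 to 5811.5 in spleen mature basophils. Prss34 was the largest part of this sum in the marrow groups, at a mean of 45144.0 CPM in pre-basophils against 5065.1 for BM mature cells. Mcpt8, Fcer1a, Ms4a2 and Il3ra were also lower in every BM mature library than in any pre-basophil library. The reverse held for Cd200r3, Gata2 and Itga2. Cd200r3 had 1087.8 to 1154.3 against 906.5 to 981.8 CPM, and Itga2 156.6 to 201.1 against 72.9 to 97.6. The sum thus does not stand for all 8 markers. BaP replicate 3 stood apart. Its basophil markers summed to 24184.8 CPM against 60543.1 and 65236.6 in the other BaP libraries, its 8 erythroid markers to 1894.6 against 9.43 and 10, and its 8 T and NK cell markers to 605.2 against 16.7 and 18.9. Outside BaPs these 2 lists summed to 33.3 to 197.2 and to 15.4 to 52.3 CPM. The values of the members and named genes that rest on BaPs are therefore also given without it where it moved a call or a count. Of the lists for other cells, the 8 B cell markers summed to 113.9 to 183.4 CPM in spleen libraries and to 32.1 to 74.1 elsewhere. The 8 neutrophil markers ran from 123.7 to 1510.2 in BaPs and from 264.1 to 1333.3 in pre-basophils, against 48.1 to 63.3 in BM and 39.1 to 39.5 in spleen mature basophils. The 9 macrophage and dendritic cell markers stayed at 11.7 to 59.2 CPM and the 4 mast cell markers in the table at 0.955 to 37.4. The highest of both was that of BaP replicate 3. In bulk samples, fewer cells of a type and less RNA per cell cannot be told apart.

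The 7 genes lie on 5 chromosomes of GRCm38. Cd9 (ENSMUSG00000030342) occupies chr6:125460266-125494791 on the minus strand, Cd82 (ENSMUSG00000027215) chr2:93419111-93463140 on the minus strand and Cd53 (ENSMUSG00000040747) chr3:106759921-106790149 on the minus strand. Cd63 (ENSMUSG00000025351) lies at chr10:128900989-128912822 on the plus strand. Chromosome 7 carries the other three, Cd37 (ENSMUSG00000030798) at chr7:45233632-45239115 on the minus strand, Cd151 (ENSMUSG00000025510) at chr7:141467392-141471473 and Cd81 (ENSMUSG00000037706) at chr7:143052739-143067934, both on the plus strand. Each is a protein-coding gene, with 6 exons (Cd37) to 10 exons (Cd82) in its longest transcript. Genes on the opposite strand overlap Cd9 (Gm28809 and Gm26728), Cd37 (Tead2), Cd81 (R74862), Cd82 (Gm10804) and Cd151 (Gm10575), and since it is not known whether the counting used the strand, reads of such pairs cannot be told apart here.

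Start regions from RefSeq (GRCm38.p6; 250 bases before to 50 after the start) are shown for the 5 members that differed among the groups, because pairs of them moved together or in opposition. Capitals mark matches on either strand to 5 short motifs, chosen with the sequences in view, namely the GC box GGGCGG, the PU.1-type ETS core GAGGAA, the RUNX core TGTGGT, the TATA box TATAAA and the GATA core AGATAA. No match overlapped another. The windows are chr6:125494711-125495010 (minus strand) for Cd9, chr2:93462901-93463200 (minus strand, the one of 4 windows nearest to the annotated gene start) for Cd82, chr7:143052500-143052799 (plus strand) for Cd81, chr3:106790100-106790399 (minus strand) for Cd53 and chr7:45238790-45239089 (minus strand) for Cd37, each read 5′ to 3′ along the gene.
Cd9: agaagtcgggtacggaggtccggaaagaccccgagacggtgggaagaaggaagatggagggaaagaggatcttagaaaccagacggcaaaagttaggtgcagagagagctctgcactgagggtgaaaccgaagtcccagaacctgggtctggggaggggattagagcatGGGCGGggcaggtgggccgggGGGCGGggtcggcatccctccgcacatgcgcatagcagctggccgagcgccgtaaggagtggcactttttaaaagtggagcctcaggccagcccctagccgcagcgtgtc
Cd82: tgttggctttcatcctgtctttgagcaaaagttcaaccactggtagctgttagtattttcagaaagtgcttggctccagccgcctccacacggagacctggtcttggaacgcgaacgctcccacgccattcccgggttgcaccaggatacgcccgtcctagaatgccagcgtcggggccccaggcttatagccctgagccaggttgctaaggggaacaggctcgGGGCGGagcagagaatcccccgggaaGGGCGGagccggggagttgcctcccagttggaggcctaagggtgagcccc
Cd81: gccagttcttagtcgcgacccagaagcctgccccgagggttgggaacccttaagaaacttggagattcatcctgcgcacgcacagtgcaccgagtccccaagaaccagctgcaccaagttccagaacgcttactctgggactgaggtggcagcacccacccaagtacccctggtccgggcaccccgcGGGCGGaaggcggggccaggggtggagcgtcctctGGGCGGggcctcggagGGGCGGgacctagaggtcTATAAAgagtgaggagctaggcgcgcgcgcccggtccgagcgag
Cd53: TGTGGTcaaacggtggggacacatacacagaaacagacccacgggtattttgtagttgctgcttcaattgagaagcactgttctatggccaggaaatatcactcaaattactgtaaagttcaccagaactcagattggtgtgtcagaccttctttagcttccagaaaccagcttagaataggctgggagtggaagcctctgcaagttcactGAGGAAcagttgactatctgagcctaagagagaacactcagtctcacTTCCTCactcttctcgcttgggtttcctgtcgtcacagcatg
Cd37: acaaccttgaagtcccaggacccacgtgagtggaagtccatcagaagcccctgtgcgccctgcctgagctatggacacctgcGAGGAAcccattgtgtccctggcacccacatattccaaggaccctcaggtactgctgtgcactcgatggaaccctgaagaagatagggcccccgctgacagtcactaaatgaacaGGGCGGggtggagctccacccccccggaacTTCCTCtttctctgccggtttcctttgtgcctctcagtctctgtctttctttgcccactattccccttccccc
The windows of Cd9, Cd82 and Cd81, with a GC content of 61.3%, 60.7% and 65.7%, held 2, 2 and 3 GC boxes and no ETS core. The Cd81 window also held a TATA box. The Cd53 window, with 46.3% GC, held 2 ETS cores, 1 RUNX core and no GC box, and the Cd37 window, with 57.7% GC, held 2 ETS cores and 1 GC box. The median GC content of all 32851 windows was 52.7%. Of these windows, 35.7% held a GC box, 28.3% an ETS core, 16.8% a RUNX core, 13.6% a TATA box and 11.2% a GATA core, which none of the 5 windows had. Of the windows not printed, that of Cd63 held 2 ETS cores and lay 8356 bases from the annotated gene start, and that of Cd151 held 2 GC boxes. A match is a run of letters and says nothing about binding.

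Cd63 was the most abundant member per length. Its level was 1066 ± 205 CPM per kb of its longest transcript over the 12 libraries (SD, n = 12), followed by Cd53 (365 ± 103) and Cd9 (362 ± 123), and then by Cd37 (95.1 ± 14.0), Cd82 (76.0 ± 28.5), Cd81 (16.3 ± 11.0) and Cd151 (3.08 ± 1.04). The SDs of Cd53 and Cd9 overlap widely. In the spleen, Cd9 stood above Cd53, at 427 ± 51.2 against 304 ± 35.0 CPM per kb, and Cd82 above Cd37, at 103 ± 7.91 against 88.9 ± 8.25 (SD, n = 3). Both orders held for the longest transcript only. By coding length the spleen had 774.1 for Cd9 against 805.7 for Cd53, and 235.0 for Cd82 against 248.5 for Cd37. By merged exon length these pairs were 256.8 against 303.9 and 62.4 against 64.1. By merged exon length Cd53 came before Cd63, at 365 against 321 CPM per kb. Whether reads fell evenly along transcripts is not known.

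**Figure D1:**
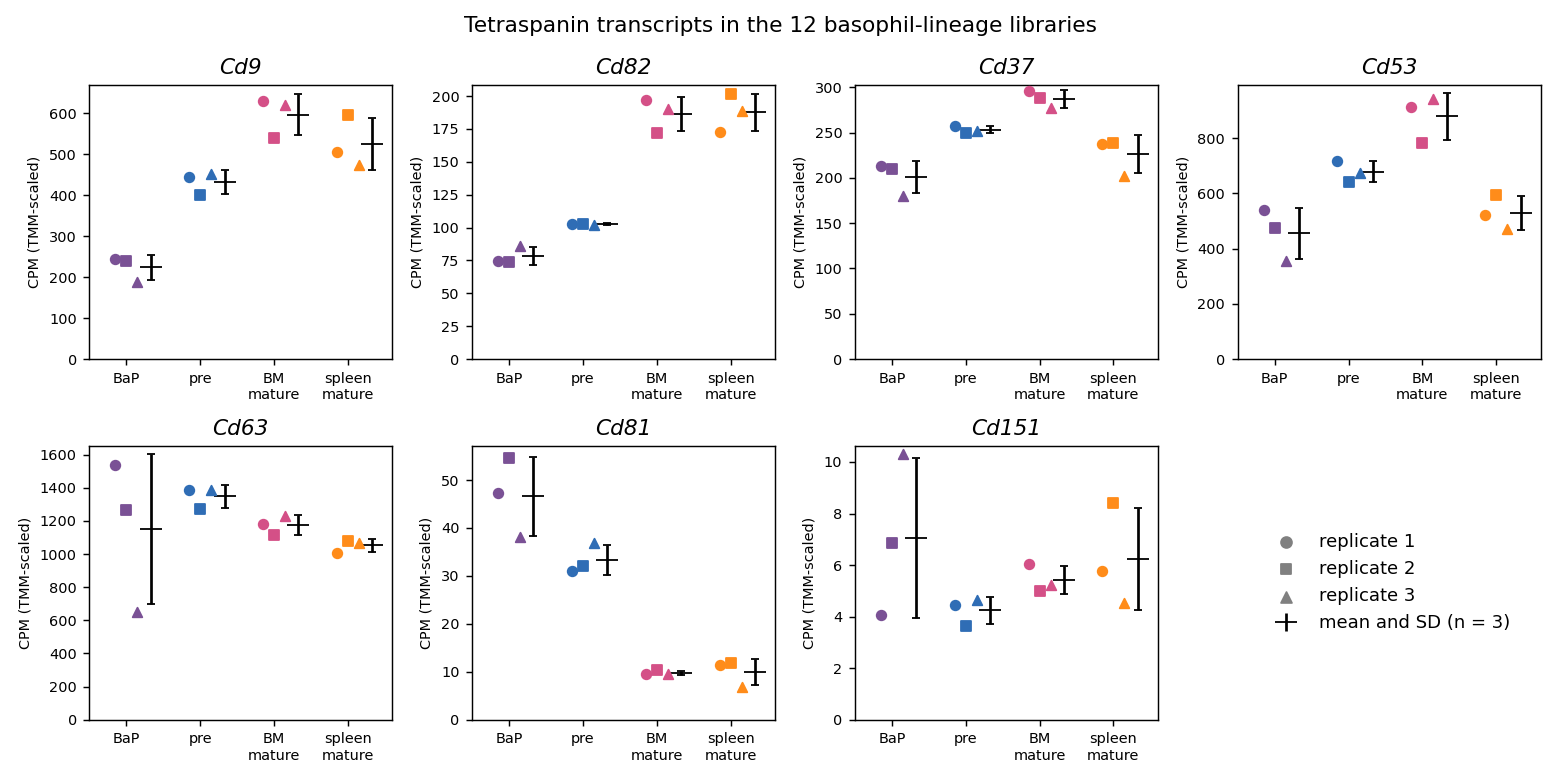
Level of each tetraspanin transcript in CPM of TMM-scaled totals (linear axes from 0, with a scale of their own) in the 12 libraries, by group. Points are libraries, with a symbol for each replicate number, and bars are the mean and SD of 3 libraries. Cd9 and Cd82 were lowest in BaPs and Cd81 was lowest in the mature groups, while Cd63 varied most within BaPs, from 651.7 to 1537.7 CPM.

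The 4 groups differed in 5 of the 7 members, namely Cd9, Cd37, Cd53, Cd81 and Cd82 (edgeR quasi-likelihood F test, adjusted p under 0.05), and 57.8% of all genes tested passed the same test. Cd63 (adjusted p = 0.496) and Cd151 (0.240) did not pass it. When BaP replicate 3 was left out, Cd63 passed as well (edgeR adjusted p = 0.0044), as did 9690 of 14723 genes, against 8714 of 15083 with it. Under scaling by library size alone, Cd37 no longer passed (edgeR adjusted p = 0.184).

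Cd9, whose product was part of the sort, was lowest in BaPs. Its level was 244.1, 239.3 and 187.9 CPM in BaP replicates 1, 2 and 3, and 444.1, 400.2 and 452.7 CPM in pre-basophils. BM mature basophils had 631.1, 539.1 and 619.3 CPM and spleen mature basophils 505.2, 595.2 and 474.1 CPM. All BaP libraries lay below all others, all pre-basophil libraries below the mature ones, and the mature groups overlapped. BaPs had 224 ± 31.1 CPM against 432 ± 28.2 in pre-basophils (SD, n = 3), a 1.94-fold lower level (log2 fold change -0.95 ± 0.13 SE, edgeR adjusted p = 0.0011). Without BaP replicate 3 the BaP mean was 242 CPM. Pre-basophils had a 1.38-fold lower level than BM mature basophils at 596 ± 50.1 CPM (log2 fold change -0.46 ± 0.13 SE, edgeR adjusted p = 0.017). Both groups were gated on CD9 protein in opposite directions, so this difference describes the gate and is no separate test. It no longer passed under library size alone (adjusted p = 0.111) and under DEGES (0.0822), an iterated TMM that leaves out called genes and is built into the package the authors used, nor when pre-basophil library 1 (0.0569) or 2 (0.0838) was left out, or library 1 (0.0760) or 3 (0.0580) of the BM mature group.

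The mature groups shared their CD9 gate. Cd9 was 525 ± 62.9 CPM in the spleen, 1.14-fold below the BM, which did not pass the test (log2 fold change -0.18 ± 0.13 SE, edgeR adjusted p = 0.407). The order of Cd9 was thus BM mature, spleen mature, pre-basophil and BaP, and of the neighbours only pre-basophils and BaPs differed by the test. Pre-basophils and spleen mature basophils gave an edgeR adjusted p of 0.0935 (log2 fold change -0.28 ± 0.13 SE), and passed with BaP replicate 3 left out of the fit (0.0304), under upper-quartile scaling (0.0396) and with these groups alone (0.0397). Pre-basophils and spleen mature basophils also had opposite CD9 gates, so this difference describes the gate as well. The labels give BaPs no CD9 gate, but the groups set against them were gated. Cd9 differences from BaPs are therefore not independent of the sort. Cd9 is also abundant in platelets. The platelet gene Ppbp stood at 79.4, 174.9 and 73.4 CPM in the spleen libraries, where the library with the highest Ppbp also had the highest Cd9, and at 10.3 to 11.5 CPM in BM mature basophils. Pf4, another platelet gene, was 43.4, 43.9 and 30.1 CPM in the spleen and 109.8, 21.0 and 15 CPM in BM mature basophils, where its highest library, replicate 1, also had the highest Cd9. Both genes were named after their values were seen. The 8 platelet and megakaryocyte markers summed to 412.1 to 481.8 CPM in BaPs, 512.1 to 596.7 in pre-basophils, 578.4 to 656.5 in BM mature and 689.7 to 1023 in spleen mature basophils, most of it from Itga2b. In the spleen the sum was highest in replicate 3 (1023.1 CPM), as was Itga2b (888.4 CPM), and Cd9 was lowest there. In BM mature basophils the sum was highest in replicate 1 (656.5 CPM), as was Cd9. The part of these markers in the Cd9 level was not tested. The genes whose log2 CPM was most like that of Cd9 over the 12 libraries were Lilrb4a (Pearson r = 0.981), Fam110c (0.980) and Lilr4b (0.978), of which the Lilr genes encode paired leukocyte receptors and resemble each other in sequence.

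Cd82, which encodes a tetraspanin of the surface and endosomes also known as a suppressor of metastasis, rose along with maturity in the marrow. BaP libraries measured 74.8, 73.8 and 85.9 CPM, and pre-basophil libraries 102.9, 102.7 and 101.6 CPM. The BM mature libraries had 197.3, 172.0 and 190.2 CPM, and those of the spleen 172.5, 201.3 and 188.7 CPM. The BaP, pre-basophil and mature libraries did not overlap, whereas the mature groups overlapped. Pre-basophils at 102 ± 0.720 CPM stood 1.82-fold below BM mature basophils at 186.5 ± 13.0 CPM (log2 fold change -0.87 ± 0.11 SE, edgeR adjusted p = 7.07e-05), and BaPs 2.39-fold below spleen mature basophils (log2 fold change -1.26 ± 0.11 SE, edgeR adjusted p = 6.75e-07). Both calls held under all 21 alternatives. Spleen and BM mature basophils had 187.5 and 186.5 CPM (log2 fold change 0.01 ± 0.11 SE, edgeR adjusted p = 0.977).

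The step from BaPs to pre-basophils was smaller for Cd82. BaPs had 78.1 ± 6.72 CPM, 1.31-fold below pre-basophils (log2 fold change -0.39 ± 0.11 SE, edgeR adjusted p = 0.0483). This call was lost under 16 of 21 alternatives, among them the omission of any 1 library other than BaP replicate 3, with adjusted p between 0.0116 and 0.396 over all of them, while the direction held in each. Without BaP replicate 3, in which Cd82 was highest, the BaP mean was 74.3 CPM and the call remained. The closest patterns belonged to Zc3hav1 (r = 0.991), an antiviral RNA-binding protein, the chemokine gene Ccl6 (0.991) and Nxpe4 (0.990), over 12 libraries.

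Cd81 went the other way. It encodes a surface tetraspanin found on many cell types. BaP libraries stood at 47.3, 54.5 and 38.2 CPM and pre-basophil libraries at 31.0, 32.1 and 36.9 CPM. Those of BM mature cells had 9.55, 10.3 and 9.55 CPM, and those of the spleen 11.4, 11.9 and 6.91 CPM. Every BaP and pre-basophil library exceeded every mature library. The mean fell from 33.4 ± 3.15 CPM in pre-basophils to 9.79 ± 0.415 CPM in BM mature basophils, a 3.42-fold difference (log2 fold change 1.77 ± 0.21 SE, edgeR adjusted p = 3.93e-05). BaPs at 46.6 ± 8.17 CPM were 4.64-fold above spleen mature basophils at 10 ± 2.73 CPM (log2 fold change 2.21 ± 0.20 SE, edgeR adjusted p = 8.33e-07). These calls held under all 21 alternatives. Each was larger in size than that of any other member in the same comparison.

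BaPs and pre-basophils did not overlap in Cd81, but their 1.39-fold difference did not pass the test (log2 fold change 0.47 ± 0.18 SE, edgeR adjusted p = 0.137). When BaP replicate 3 was left out it passed (log2 fold change 0.61, edgeR adjusted p = 0.0320), as it did under library size alone (0.66, 0.0383). The mature groups differed by a log2 fold change of 0.03 ± 0.22 SE (edgeR adjusted p = 0.959). B cell markers were higher in the spleen libraries, and their part in the Cd81 level was not tested. The patterns nearest to that of Cd81 were those of Ak6 (r = 0.989), Metrn (0.988) and Psat1 (0.984), the last a serine synthesis enzyme with 40.8 CPM in BaPs and 2.35 CPM in BM mature basophils.

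**Figure D2:**
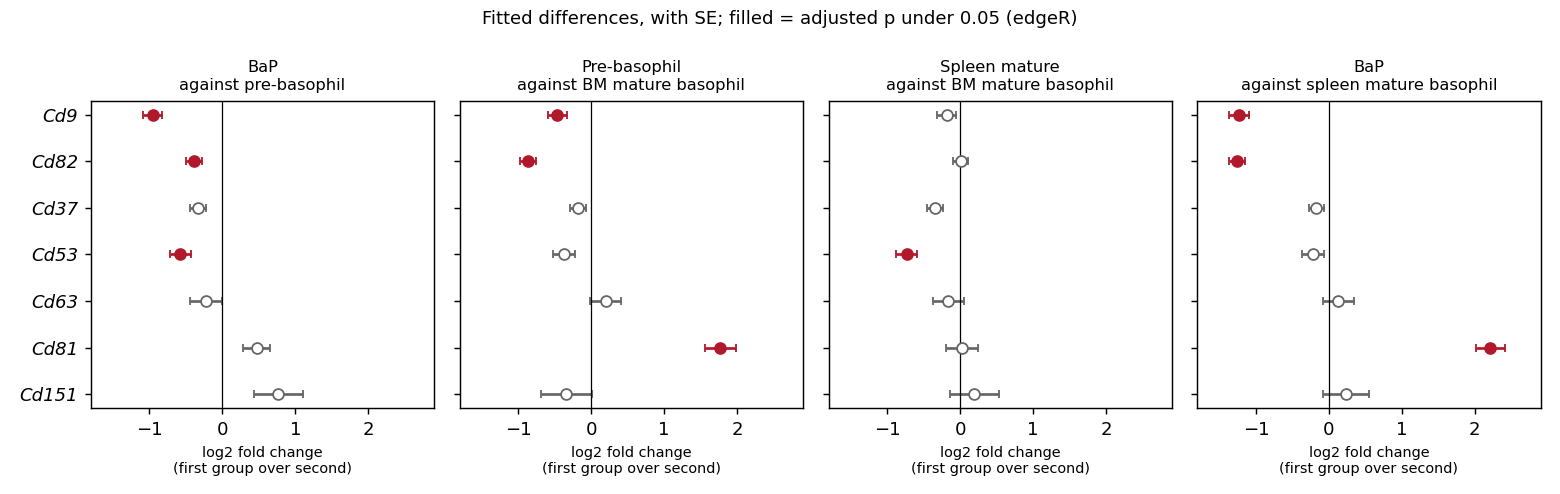
Fitted log2 fold change of each member in 4 comparisons, the first group named over the second, with its SE. Filled points passed at an edgeR adjusted p under 0.05. Cd81 lies to the right and Cd82 and Cd9 to the left in the comparisons of pre-basophils with BM mature and of BaPs with spleen mature basophils, and only Cd53 passed between spleen and BM mature basophils.

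Cd53 and Cd37 encode the leukocyte tetraspanins, and both were highest in BM mature basophils. The Cd53 level was 538.4, 474.3 and 355.9 CPM among BaP libraries and 717.8, 642.7 and 675.4 CPM among those of pre-basophils. It was 911.8, 783.7 and 941.4 CPM among BM mature libraries, and the spleen gave 521.5, 593.8 and 472.6 CPM. Libraries of BM mature basophils lay above those of all other groups, and the spleen overlapped BaPs. Spleen mature basophils had 529 ± 61.0 CPM, 1.66-fold below the 879 ± 83.8 CPM of BM mature basophils (log2 fold change -0.73 ± 0.15 SE, edgeR adjusted p = 0.012). It was the only member to pass the test between the mature groups. The call was lost without BM mature replicate 1 (0.0589) or 3 (0.0504) and without spleen replicate 3 (0.0711), and the log2 fold change stayed between -0.82 and -0.60 under all 21 alternatives. B cells express Cd53 as well, and B cell markers were higher in the spleen. Their part in the Cd53 level was not tested.

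Cd53 also rose from BaPs to pre-basophils, from 456 ± 92.6 to 679 ± 37.7 CPM, or 1.49-fold (log2 fold change of BaPs over pre-basophils -0.57 ± 0.15 SE, edgeR adjusted p = 0.033). The call was lost under DEGES (adjusted p = 0.0667), with the groups compared alone (0.0930), and without BaP replicate 2 (0.0509), any of pre-basophil replicates 1, 2 and 3 (0.137, 0.0847 and 0.103) or BM mature replicate 1 (0.0636). It held without BaP replicate 3. Pre-basophils lay 1.29-fold below BM mature basophils without overlap, which did not pass (log2 fold change -0.37 ± 0.15 SE, edgeR adjusted p = 0.0762), but passed without BaP replicate 3 (0.0105), under upper-quartile scaling (0.0386) and with these groups alone (0.0072). Set against the spleen, pre-basophils were 1.28-fold higher (log2 fold change 0.36 ± 0.15 SE, edgeR adjusted p = 0.0608). This passed under 6 of 21 alternatives. Among them were the omission of BaP replicate 1 (0.0397) or 3 (0.0083) from the fit, these groups alone (0.0064), library size alone (0.0071) and DEGES (0.0258). Another was the replicate number as a block (0.0485), although spleen numbers showed no pairing with the BM. BaPs and spleen mature basophils gave an edgeR adjusted p of 0.229. In the order BM mature, pre-basophil, spleen mature and BaP, no neighbours passed the test. Genes with a pattern most like that of Cd53 were Gm37486 (r = 0.976), the recycling endosome GTPase gene Rab11a (0.967) and the autophagy receptor gene Tax1bp1 (0.965).

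Cd37 followed the order of Cd53 in a narrower range. BaPs had 212.8, 210.0 and 180.3 CPM, pre-basophils 257.2, 250 and 252.0 CPM, BM mature basophils 296.0, 288.4 and 276.7 CPM, and spleen mature basophils 237.8, 238.3 and 201.7 CPM. Apart from BaPs and the spleen, no groups overlapped. BaPs at 201 ± 18.0 CPM were 1.43-fold below BM mature basophils at 287 ± 9.72 CPM (log2 fold change -0.51 ± 0.11 SE, edgeR adjusted p = 0.0015), which passed except under library size alone (log2 fold change -0.10, adjusted p = 0.473). No neighbours in this order passed the test. Spleen against BM mature basophils gave a log2 fold change of -0.35 ± 0.11 SE (edgeR adjusted p = 0.0636), and BaPs against pre-basophils -0.33 ± 0.11 SE (0.0764). With the replicate number as a block both passed (0.0348 and 0.0455), and the first also passed with DESeq2 (0.0425), without BaP replicate 3 (0.0133) and with these groups alone (0.0281). The block covered the spleen too, whose replicate numbers showed no pairing with the BM. Pre-basophils against BM mature basophils gave -0.18 ± 0.11 SE (edgeR adjusted p = 0.234). Over the 12 libraries the log2 CPM of Cd37 and Cd53 had a Pearson r of 0.960, and those of Cd81 and Cd82 one of -0.976. No other pair of members came as far from 0. The libraries share depth and make-up, so these values are descriptions. The 3 patterns nearest to Cd37 were those of D430036J16Rik (0.978), Tnfsfm13 (0.968) and AC160138.1 (0.967).

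Cd63, the granule membrane member, passed the test between no pair of groups, with edgeR (unadjusted p of 0.120 or more) or with DESeq2. BaP libraries stood at 1537.7, 1266.9 and 651.7 CPM, and pre-basophil libraries at 1388.9, 1269.8 and 1385.0 CPM. Those of BM mature cells had 1181.0, 1113.2 and 1231.8 CPM, and those of the spleen 1008.6, 1079.9 and 1066.6 CPM. The values outside BaPs fell in a narrow band and did not overlap between groups, while the BaP values spanned it. Pre-basophils with 1348 ± 67.7 CPM were 1.15-fold above BM mature basophils with 1175 ± 59.5 CPM (log2 fold change 0.20 ± 0.22 SE, edgeR adjusted p = 0.537), and spleen mature basophils with 1052 ± 37.9 CPM were 1.12-fold below the latter (-0.16 ± 0.22 SE, 0.692).

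BaP replicate 3 set the spread of Cd63. The BaP mean was 1152 ± 454 CPM with it and 1402 CPM without it. Against pre-basophils the log2 fold change of BaPs was -0.23 ± 0.22 SE (edgeR adjusted p = 0.587) and turned to 0.07 without that library. Against spleen mature basophils it was 0.13 ± 0.22 SE (0.627) and became 0.43 without it, which passed (edgeR adjusted p = 0.0019). Against BM mature basophils it was -0.03 ± 0.22 SE (0.927), and without that library 0.27 (0.0433). Pre-basophils against spleen mature basophils gave 0.36 ± 0.22 SE (0.191). This passed under 2 of 21 alternatives, 1 of them with 0.36 when BaP replicate 3 was left out of the fit (0.0038). The same library was low in basophil markers and high in erythroid and T and NK cell markers, and their part in its Cd63 level was not tested. Cd63-ps, a transcribed processed pseudogene, was listed at 176 ± 57.1 CPM in BaPs and at 177 to 203 CPM in the other groups. Of its distinct 50-base stretches, 46.9% also occur in Cd63, so reads of the pair may have been split. With their counts summed, the log2 fold changes of Cd63 moved to 0.20, -0.22, -0.14 and 0.11 for pre-basophil over BM mature, BaP over pre-basophil, spleen over BM mature and BaP over spleen mature, and none passed. Without BaP replicate 3 the summed counts passed the F test among the 4 groups (edgeR adjusted p = 0.0087), as did Cd63 by itself. Most like Cd63 were Mfsd13a (r = 0.958), the actin-binding gene Tagln2 (0.938) and the acyl-CoA synthetase gene Acsl1 (0.937).

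Cd151, which encodes a partner of laminin-binding integrins, had the lowest level of the members. BaP libraries held 17, 29 and 106 counts, pre-basophil libraries 16, 15 and 29, BM mature libraries 19, 20 and 28, and spleen libraries 36, 51 and 34. These correspond to 4.06 to 10.3, 3.65 to 4.64, 5.01 to 6.05 and 4.52 to 8.42 CPM, and groups overlapped except for pre-basophils and BM mature basophils. No pair of groups passed, and the largest difference was that of BaPs over pre-basophils (log2 fold change 0.77 ± 0.34 SE, edgeR adjusted p = 0.191). BaP replicate 3 had the highest value, and without it the BaP mean fell from 7.05 to 5.45 CPM. Ric1 (r = 0.885), Pard3b (0.856) and Pogk (0.853) had the patterns nearest to it.

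Counted over the 7 members, pre-basophils against BM mature basophils gave 3 calls, where 27.3% of all genes tested passed. Of these 1 was higher in pre-basophils (Cd81; 16.3% of all genes) and 2 were lower (Cd9, which was gated, and Cd82; 11.0% of all genes). All 7 members had no overlap between these groups, as did 47.0% of all genes, although 4 of them did not pass the test. The median log2 fold change was -0.34 for the members and -0.0044 for all genes. Without BaP replicate 3 in the fit there were 4 calls, with Cd53 added, and 5251 of 14723 genes passed, against 4112 of 15083 with it.

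BaPs against pre-basophils gave 3 calls, all lower in BaPs (Cd9, which was gated in pre-basophils, Cd53 and Cd82), where 7.08% of all genes passed and 4.29% were lower. Groups did not overlap in 5 members and in 25.1% of all genes. The median log2 fold change was -0.33 against 0.02 for all genes. Of the 3 calls, that of Cd9 alone held under all 21 alternatives. Without BaP replicate 3 there were 4, with Cd81 higher in BaPs, and 1831 of 14723 genes passed, against 1068 of 15083 with it.

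Spleen against BM mature basophils gave 1 call, Cd53, lower in the spleen, where 7.83% of all genes passed and 4.67% were lower. Groups did not overlap in 3 members and in 33.7% of all genes. Without BaP replicate 3 in the fit there were 2 calls, with Cd37 added, and 2653 of 14723 genes passed, against 1181 of 15083 with it. BaPs against spleen mature basophils gave 3 calls, 1 higher in BaPs (Cd81; 29.8% of all genes) and 2 lower (Cd9, which was gated in the spleen group, and Cd82; 24.6%), where 54.5% of all genes passed. Groups did not overlap in these 3 members and in 59.9% of all genes. When BaP replicate 3 was left out there were 4 calls, with Cd63 added, and 9065 of 14723 genes passed, against 8213 of 15083 with it. The remaining pairs gave 5 calls for BaPs against BM mature basophils (all but Cd63 and Cd151; 45.0% of all genes passed) and 2 for pre-basophils against spleen mature basophils (Cd81 and Cd82; 45.7%). With BaP replicate 3 left out of the fit these became 6, with Cd63 added, and 5, with Cd9 (gated in both groups), Cd53 and Cd63 added. Of 14723 genes, 7549 and 8010 then passed, against 6785 and 6899 of 15083 with that library. Against BM mature basophils, BaPs had 4.73-fold more Cd81, and 2.67-fold less Cd9 (gated in the BM mature group), 2.38-fold less Cd82 and 1.93-fold less Cd53. The comparisons share libraries and are not independent.

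The make-up of the 7 genes' summed counts differed among the groups, but not in the same course for all members. The mean share of Cd37 was 8.88% to 9.66% in every group, and that of Cd82 was 3.89% in BaPs and 3.6% in pre-basophils. Cd63 took 57.8%, 54.5% and 43.2% of these counts in the BaP replicates, 47.0% to 47.6% in pre-basophils, 36.5% to 38.2% in BM mature and 39.6% to 44.2% in spleen mature basophils. Its share was higher in every pre-basophil library than in any mature one. Cd9 took 10.6% ± 1.66 of the counts of BaPs and 15.2% ± 0.382 of those of pre-basophils, but 19.0% ± 0.507 and 20.7% ± 1.10 of those of BM and spleen mature basophils (SD, n = 3). Cd81 made up 2.22% ± 0.389 in BaPs and 1.17% ± 0.110 in pre-basophils, and 0.313% ± 0.0342 and 0.394% ± 0.0947 in BM and spleen mature basophils. On the scale of log2 odds, the share in pre-basophils less that in BM mature basophils was 0.58 for Cd63 and 1.92 for Cd81, and -0.76 for Cd82, -0.39 for Cd9 and -0.31 for Cd53. In each of these the libraries did not overlap, and the exact two-sided permutation test of 3 against 3 gave p = 0.1, the smallest it can give, so no share could pass. Shares need no scaling between libraries, but a share of 1 gene rises when another falls, and longer genes take more counts.

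**Figure D3:**
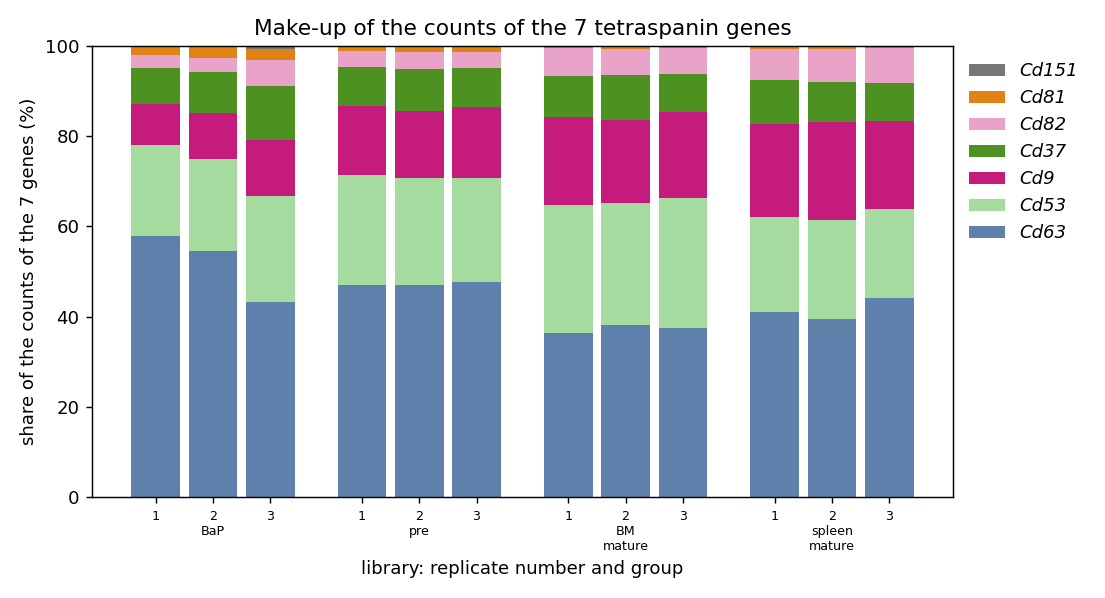
Share of each gene in the summed counts of the 7 members (percent, linear axis to 100) in each of the 12 libraries, grouped by cell type. The band of Cd63 is 57.8% in BaP replicate 1 and 36.5% to 38.2% in BM mature basophils, the Cd9 band is wider in the mature groups, and BaP replicate 3 differs from the other BaP libraries.

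Of 26 other tetraspanin genes listed, 20 were in the table and 15 passed the count filter. The most abundant per length was Tspan13, at 65.6 CPM per kb over the 12 libraries, below the levels of 5 of the 7 members. Between pre-basophils and BM mature basophils 5 of the 15 passed, where 27.3% of all genes passed, and 3 passed with DESeq2 or voom. The 5 were all higher in pre-basophils, as were 16.3% of all genes, and the median of the log2 fold changes of the 15 was 0.56, against -0.0044 for all genes. The 5 genes were Tspan31 (23.4 ± 1.79 against 9.27 ± 0.752 CPM, log2 fold change 1.34 ± 0.30 SE), Tspan32 (60.9 ± 8.12 against 25.0 ± 6.89 CPM, 1.28 ± 0.20), which is expressed mainly in blood cells, Rom1 (113.8 ± 6.50 against 48.0 ± 5.94 CPM, 1.25 ± 0.25), known from photoreceptor discs, Tspan4 (0.56) and the low Tspan6 (2.05). The edgeR adjusted p-values of Tspan31, Tspan32 and Rom1 were 0.0048, 0.0004 and 0.0025, and these calls held under all 21 alternatives. Tspan31 overlaps Cdk4 and Tspan32 overlaps Tspan32os on the opposite strand. Tspan32os stood at 0 to 0.974 CPM. The level of Cdk4 is not given here, and the part of its reads in the Tspan31 counts was not tested.

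Between BaPs and pre-basophils none of the 15 passed with edgeR, where 4 had an unadjusted p under 0.05. With DESeq2 1 passed and with voom none, and with edgeR 1 (Tspan31) passed without BaP replicate 3, as did 1831 of 14723 genes. Between spleen and BM mature basophils 2 passed, Tspan13 with 91.0 ± 2.4 against 141.8 ± 10.6 CPM (log2 fold change -0.64 ± 0.13 SE, edgeR adjusted p = 0.011) and the low Tspan2, which was higher in the spleen (5.43 against 1.30 CPM). The call of Tspan13 was lost without BM mature replicate 1 (0.0592) or spleen replicate 3 (0.0568). Between BaPs and spleen mature basophils 10 passed, 7 higher in BaPs and 3 lower, where 54.5% of all genes passed. With BaP replicate 3 left out 11 of the 14 genes then tested passed, as did 9065 of 14723 among all genes. The changes were largest among abundant genes for Tspan31 (log2 fold change 2.67 ± 0.29 SE), Tspan32 (1.87 ± 0.20) and Rom1 (1.27 ± 0.25). BaP replicate 3 was low in Tspan31, with 22.4 CPM against 52.8 and 54.2 in the others, and in Rom1, with 48.3 against 110.6 and 118.3, and the log2 fold changes without it were 3.01, 1.79 and 1.60. Tspan5 was lower (-0.47 ± 0.16 SE, edgeR adjusted p = 0.024), and lost its call under 8 of 21 alternatives, among them library size alone (0.489) and the omission of BaP replicate 1 (0.0901) or 2 (0.0639) or of spleen replicate 1 (0.0932) or 3 (0.0569).

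**Figure D4:**
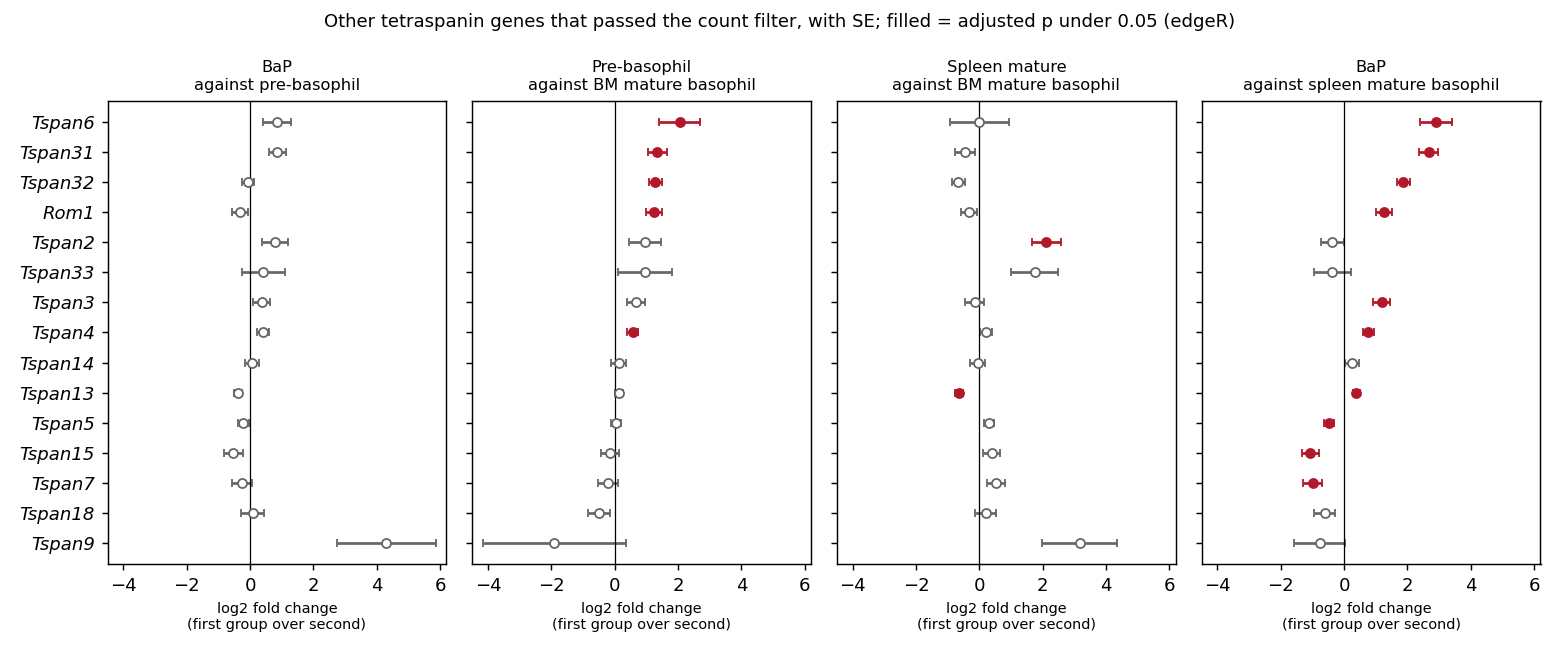
Fitted log2 fold change, with its SE, of the 15 other tetraspanin genes that passed the count filter, in the 4 comparisons, the first group named over the second. Filled points passed at an edgeR adjusted p under 0.05. Tspan31, Tspan32 and Rom1 lie to the right in the comparisons of pre-basophils with BM mature and of BaPs with spleen mature basophils, and no gene passed between BaPs and pre-basophils.

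Partners of tetraspanins were counted from a list of 23 genes, of which 18 passed the count filter. Between pre-basophils and BM mature basophils 7 of the 18 passed, where 27.3% of all genes passed, and 5 of them were lower in pre-basophils. The lower ones included Ifitm1, an interferon-inducible membrane protein gene and the most abundant of the list, with 1218 ± 99.3 against 3330 ± 267.4 CPM (log2 fold change -1.45 ± 0.21 SE, edgeR adjusted p = 0.0002). The integrin genes Itga6 and Itgb1, which encode a laminin receptor that binds CD151, were lower as well, at 54.6 ± 15.4 against 123.5 ± 32.8 CPM and 164.2 ± 8.26 against 283.0 ± 22.7 CPM. Il7r was lower as well. Ms4a2, the beta chain of the IgE receptor, and Kit, whose product was gated out, were higher. Kit was near the floor, at 2.62 ± 0.914 against 0.502 ± 0.437 CPM (edgeR adjusted p = 0.0470). With BaP replicate 3 left out of the fit, 10 of the 18 passed between these groups, 6 of them lower in pre-basophils (5251 of 14723 among all genes). Between BaPs and pre-basophils 3 passed (7.08% of all genes), and 7 without BaP replicate 3 (1831 of 14723 among all genes). Itgb2 was lower in BaPs, and Kit and Itga4 were higher. BaP replicate 3 was highest in both of the latter, with 321.3 CPM of Itga4 against 75.0 and 89.8 in the others and 31.8 CPM of Kit against 11.5 and 7.07. The 3 calls remained without it, with log2 fold changes of 0.67 for Itga4 (1.65 with it), 1.88 for Kit (2.76) and -0.78 for Itgb2 (-0.82). Between spleen and BM mature basophils 5 passed (7.83% of all genes), and 9 with BaP replicate 3 left out of the fit (2653 of 14723 among all genes). Cr2, a complement receptor gene, was among the 2 that were higher in the spleen, and Icam1, Ms4a2 and Itgb2 were lower. Cr2 had 5.97 ± 2.87 CPM in the spleen and was near the floor in BM mature basophils, at 0.752 ± 0.377 CPM. B cell markers were higher in the spleen libraries, and their part in the Cr2 level was not tested. Between BaPs and spleen mature basophils 14 passed, 7 in each direction (54.5% of all genes). Without BaP replicate 3 also 14 passed, of which 6 were higher in BaPs (9065 of 14723 among all genes passed).

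The granule and endosome membrane list, to which the product of Cd63 belongs by place, held 16 genes, 15 of which passed the filter. Between pre-basophils and BM mature basophils 4 of the 15 passed, a share close to the 27.3% of all genes. With BaP replicate 3 left out of the fit it was 5 (5251 of 14723 among all genes). Vamp7, a SNARE of late endosomes, was higher with 16.6 ± 1.05 against 7.59 ± 1.05 CPM (log2 fold change 1.11 ± 0.21 SE, edgeR adjusted p = 0.0015), Lamp1 and Tsg101 were higher as well, and Npc1, a cholesterol exporter of late endosomes, was lower with 24.9 ± 1.62 against 45.8 ± 3.29 CPM. Vamp8, the most abundant of the list per length and a SNARE of granule fusion, had group means of 159.5 to 177.5 CPM, and none of the 4 comparisons passed for it. Between BaPs and pre-basophils 1 passed (7.08% of all genes). This was Scarb2, with 27.6 CPM in BaP replicate 3 against 11.9 and 12.3 in the others, and its call was lost without that library (log2 fold change 0.58 against 1.11, edgeR adjusted p = 0.123). Between spleen and BM mature basophils 1 passed (Ap3b1, lower in the spleen; 7.83% of all genes). Between BaPs and spleen mature basophils 9 passed, 6 of them higher in BaPs, with and without BaP replicate 3 (54.5% of all genes with it and 9065 of 14723 without it).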

How the data were processed

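The authors captured polyadenylated RNA of sorted cells, amplified the cDNA with the TAS-Seq workflow and sequenced fragmented libraries. Adapter trimming used Cutadapt 3.4 and mapping to reference transcripts Bowtie2 2.4.2, and the deposited values are raw counts of reads per gene. The build is GRCm38 in the methods and GRCm39 in the submitters' processing notes. Strand and multi-mapping rules are not given in the sources used here, nor are molecular identifiers, so PCR copies count as reads and floors cover counting error only.

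Low counts were removed by filterByExpr of edgeR 4.0.16 under R 4.3.3, libraries were scaled by TMM (factors 0.844 to 1.30), and the 12 libraries were fitted in 1 quasi-likelihood model. A gene was called at a Benjamini-Hochberg adjusted p under 0.05 over all 15083 genes tested. SEs are those of the fit, and log2 CPM used a prior count of 2. DESeq2 1.42.0 and voom in limma 3.58.1 were alternatives. Coordinates are from GENCODE M21 (GRCm38) and start regions from RefSeq. Replicates all differed by more than sampling noise (chi-square per degree of freedom 4.16 to 35).

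Same-numbered replicates deviated together within the BM, and the number thus appeared to pair BM libraries. Correlations over tested genes were 0.125 to 0.262 for BaP with pre-basophil and 0.137 to 0.230 for BaP with BM mature. They were 0.138 to 0.223 for pre-basophil with BM mature, whereas with the spleen they were 0.00037 to 0.0899. Replicate 3 was also the deepest library of each BM group. The pairing comes from these data and not from the labels.

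Named genes were the members, the 3 other tetraspanins with the largest change in each direction among those called with at least 10 CPM in the higher group, the most abundant gene of each list and the 3 genes with the highest Pearson r to each member. Other partner, granule and marker genes, and low tetraspanins, were named after their values were seen. The members and lists were chosen with earlier results of these data known. Some genes of the partner list are not reported here by name.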

Additional observations from a re-analysis of the deposited data

How the results depend on the processing

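Each member's log2 fold change in all 6 pairs of groups was recomputed under 21 alternatives. Cd9, Cd81 and Cd82 kept direction and call in BaPs against spleen mature basophils, as did Cd81 and Cd82 in pre-basophils against BM mature basophils and Cd9 in BaPs against pre-basophils. CD9 protein was gated in the spleen and pre-basophil groups, so these Cd9 calls are not independent of the sort. Under library size alone, the median of all genes moved from -0.0044 to 0.22 (pre-basophil over BM mature), from 0.02 to 0.23 (BaP over pre-basophil), from 0.01 to 0.14 (spleen over BM mature) and from 0.03 to 0.33 (BaP over spleen mature), and of 1620 genes then called between BaPs and pre-basophils 1290 were higher in BaPs, against 421 of 1068 with TMM. That scaling turned Cd37 to 0.040 in pre-basophils over BM mature and to 0.11 in BaPs over spleen mature basophils, Cd53 to 0.057 in the latter, and Cd63 to 0.36 in BaPs over BM mature basophils.

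The members called between BaPs and pre-basophils numbered 1 under DEGES and with the groups compared alone, and 1 to 4 with 1 library left out. Between spleen and BM mature basophils they numbered 2 with DESeq2, with the replicate block and with the groups compared alone, 0 to 2 with 1 library left out, and 2 with Cd63 and Cd63-ps summed and BaP replicate 3 left out, an alternative added after the data were seen. Between pre-basophils and spleen mature basophils they numbered 5 without BaP replicate 3, against 2, where 8010 of 14723 genes passed, against 6899 of 15083. As the number appeared to pair BM libraries, the block was fitted, over all 12 libraries. The edgeR adjusted p of Cd37 was then 0.0348 (spleen over BM mature) and 0.0455 (BaP over pre-basophil). That of Cd53 was 0.0485 (pre-basophil over spleen mature), and no other call of a member changed. Spleen replicate numbers showed no such pairing, so the spleen values under the block rest on a pairing not seen in these data.

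Signs turned only for differences that had not passed. With 1 library left out, the log2 fold change of Cd63 ran from -0.49 to 0.066 in BaPs over pre-basophils and from -0.13 to 0.43 in BaPs over spleen mature basophils, and that of Cd151 from -0.17 to 0.50 in the latter. In BaPs over BM mature basophils that of Cd63 ran from -0.29 to 0.27 with 1 library left out and was 0.074 under DEGES. In spleen over BM mature basophils it ran from -0.11 to 0.25 for Cd81, from -0.046 to 0.070 for Cd82 and from -0.074 to 0.39 for Cd151. In the same comparison Cd81 was -0.034 under DEGES and -0.033 with voom, and Cd82 was -0.057 under DEGES, -0.00072 with DESeq2 and -0.0011 with the size factors of DESeq2 in edgeR. Cd63 summed with Cd63-ps gave 0.062 in BaPs over pre-basophils without BaP replicate 3. With all other tetraspanins in the sum, the difference in log2 odds of a share turned to -0.029 for Cd37 and -0.11 for Cd53 (BaP over spleen mature) and to -0.0051 for Cd82 (BaP over pre-basophil). By merged exon length Cd53 ranked 1 and Cd63 2. Of the other tetraspanins, 3 passed between pre-basophils and BM mature basophils with DESeq2 and with voom, against 5 with edgeR, and 4 between spleen and BM mature basophils without BaP replicate 3, against 2. Without that library 7 partner genes passed between BaPs and pre-basophils, against 3, and 9 between spleen and BM mature basophils, against 5, and of the granule and endosome genes 2 and 3, against 1 and 1. All genes gained calls there too, with 1831 and 2653 of 14723 passing, against 1068 and 1181 of 15083. The causes were not tested. Depth limits Cd151 most, with 15 to 106 counts a library.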
